A study of Mus musculus with 6 samples.

Results

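Stanniocalcins and angiopoietin-related proteins are secreted glycoproteins, and 8 genes of these families were followed in mouse embryonic fibroblasts under low oxygen. The members are the rows of the authors' deposited table with the symbols Stc1, Stc2, Angptl2, Angptl4, Angptl6, Angptl7, Angpt1 and Angpt2, which are 8 of its 51482 distinct measurements. RNA was sequenced from wild-type fibroblasts immortalised with SV40, a virus whose large T antigen lets cultured cells keep dividing. The groups were 3 cultures kept at 21% oxygen (normoxia) and 3 cultures kept at 0.5% oxygen (hypoxia), both for 16 h, and they shared genotype and immortalisation. The comparison asks which transcripts change when oxygen is low, within a study of the mitochondrial protease YME1L, mTORC1 and lipid signals.

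Each value below is an FPKM, a count of sequenced fragments scaled to transcript length and library size, and the authors deposited 1 FPKM per gene and group. No values of single cultures were used, so no SD can be given, the depth of the libraries is unknown, and whether the cultures of the groups overlap cannot be read. The words rose and fell are used of genes called at q below 0.05 by the Cuffdiff test in the authors' deposited table. In bulk RNA, fewer cells that express a gene and less of its RNA per cell cannot be told apart.

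The stanniocalcins STC1 and STC2 are homologues of a fish hormone that lowers blood calcium. In mammals they act near the cells that release them, and both can inhibit the protease PAPP-A, which frees insulin-like growth factors from their binding proteins. Angiopoietins 1 and 2 are ligands of the endothelial receptor TIE2, the first an activator and the second often an antagonist. The angiopoietin-like proteins have the same layout, a coiled coil followed by a fibrinogen-like domain in most of them, but do not bind TIE2. Both STC1 and ANGPTL4 are textbook targets of HIFs (hypoxia-inducible factors), which are transcription factors that accumulate when oxygen is low. HIFs bind DNA at a core that reads ACGTG or GCGTG. STC2 and ANGPTL4 are also known as targets of other regulators, STC2 of the stress factor ATF4 and ANGPTL4 of the PPAR nuclear receptors.

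Windows around annotated transcription starts were available for 4 of the 8 members (Stc2, Angptl2, Angptl6 and Angptl7), credited to RefSeq on build GRCm38.p6. The sequences before the start are shown for Stc2 and Angptl6, which rose, and for Angptl7, whose group values lay farthest apart, so that the HIF core can be looked for by eye. They run 5′ to 3′ on the strand of the gene, in lower case, and capitals mark every match to ACGTG or GCGTG on either strand.
Stc2, chr11:31370075-31370311, minus strand: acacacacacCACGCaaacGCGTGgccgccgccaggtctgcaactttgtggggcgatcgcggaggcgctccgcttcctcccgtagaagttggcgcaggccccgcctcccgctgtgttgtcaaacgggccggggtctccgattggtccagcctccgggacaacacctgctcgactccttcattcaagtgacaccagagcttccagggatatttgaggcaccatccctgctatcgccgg
Angptl6, chr9:20879728-20879960, minus strand: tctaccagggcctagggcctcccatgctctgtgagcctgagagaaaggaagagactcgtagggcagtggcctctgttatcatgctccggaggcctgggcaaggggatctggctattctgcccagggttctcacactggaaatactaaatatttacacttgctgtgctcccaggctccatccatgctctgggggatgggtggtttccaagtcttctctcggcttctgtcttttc
Angptl7, chr4:148500463-148500712, minus strand: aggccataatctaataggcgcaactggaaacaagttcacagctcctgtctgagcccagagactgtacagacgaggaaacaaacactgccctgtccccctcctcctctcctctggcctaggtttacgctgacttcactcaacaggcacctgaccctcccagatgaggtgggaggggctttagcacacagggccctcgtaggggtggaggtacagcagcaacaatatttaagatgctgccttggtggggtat

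The Stc2 window held 2 matches to GCGTG, on the opposite strand (printed as CACGC) at -240 and on the gene's own strand at -231 from the RefSeq start. The windows of Angptl2, Angptl6 and Angptl7 held none, also in the 50 bases after the start. Of all 32851 windows of 300 bases, 43.8% held ACGTG or GCGTG on either strand, so a match in 1 of 4 windows is a description of these letters only. CACGTG, the E-box that contains ACGTG, was in 7.15% of all windows and in none of the 4. The ATF4 composite element TGATGNAA, searched on both strands, was in 3.97% of all windows and in none of the 4, that of Stc2 included.

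Of the 8 members, 6 were tested by the authors, and in hypoxia 3 rose (Stc1, Stc2 and Angptl6), 1 fell (Angptl4) and 2 were not called (Angptl2 and Angptl7). Angpt1 and Angpt2 were left untested by the authors. Over all 14575 tested measurements 57.9% were called, 28.9% higher and 29.0% lower, so 4 calls among 6 tested members are near the background. At q below 0.01, where 48.7% of all tested measurements were called, the same 4 members were called. With a change of at least 2-fold required as well as a q below 0.05, 18.9% of all tested measurements were called, and of the members Stc1 and Angptl6. The median difference of log2(FPKM + 1) was 0.19 over the 6 tested members and -0.0094 over all tested measurements. The lowest q the table holds, 0.000139, is shared by 5148 tested measurements, and it is the q of Stc1, Angptl4 and Angptl6.

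**Figure D1:**
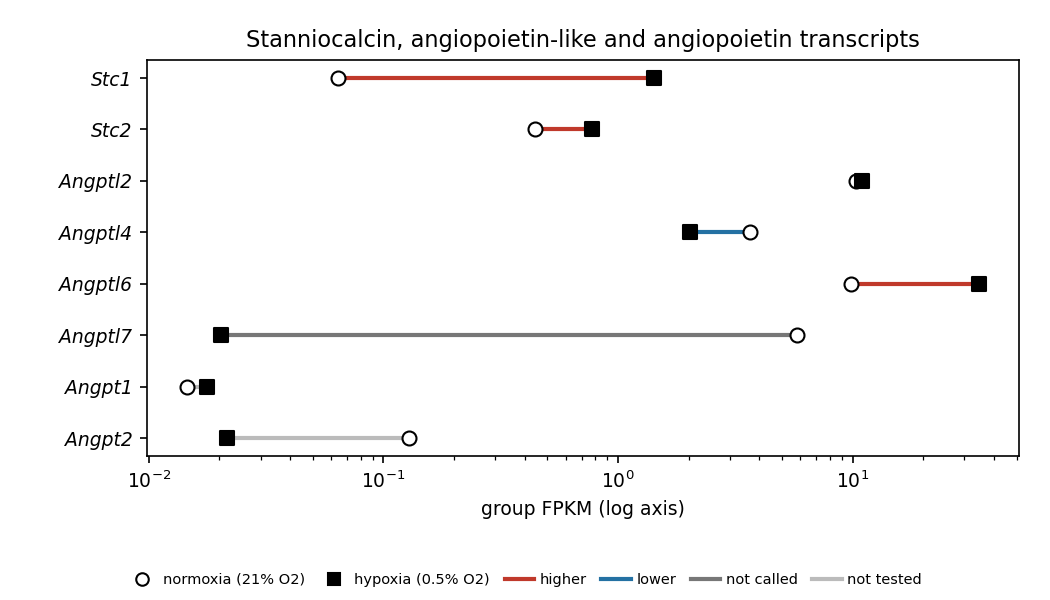
Group FPKM (log axis) of each member in normoxia (open circles) and hypoxia (black squares), joined by a line coloured by the authors' call. Stc1 runs from 0.0641 to 1.42 FPKM and Angptl6 from 9.87 to 34.6 FPKM, Angptl4 runs the other way from 3.64 to 2.02 FPKM, and the long line of Angptl7 from 5.82 to 0.0204 FPKM carries no call.

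Both stanniocalcin genes rose, by very different factors and from low levels. Stc1 (ENSMUSG00000014813, chromosome 14, 69029238 to 69041804 on GRCm38, plus strand) measured 0.0641 FPKM under normoxia and 1.42 FPKM under hypoxia, a 22.2-fold rise (authors' log2 fold change 4.47, q = 0.000139 in the authors' deposited table). Stc1 was thus close to absent from normoxic cells and present at a low level in hypoxic ones. Of the 14575 tested measurements, 61 (0.419%), Stc1 included, had a log2 fold change at least as high, whether called or not. Its mean level over both groups exceeded that of 14.0% of the tested measurements.

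Stc2 (ENSMUSG00000020303, chromosome 11, 31357307 to 31370074, minus strand) went from 0.445 to 0.776 FPKM, a 1.74-fold rise (log2 fold change 0.80, q = 0.00814 in the authors' deposited table). A log2 fold change at least as high was found in 15.5% of tested measurements, whether called or not. Among the 2448 tested measurements with a mean under 1 FPKM, the range that holds Stc1 and Stc2, 13.5% were called higher and 19.8% lower.

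By the 1 value per group, the order of the stanniocalcins turned over, which could not be set against the spread of single cultures. On the FPKM scale, which is per transcript length, Stc2 was 6.95 times the level of Stc1 in normoxia, and Stc1 was 1.83 times the level of Stc2 in hypoxia. The summed FPKM of the pair went from 0.509 to 2.197, and Stc1 made up 64.7% of the hypoxic sum. Their log2 fold changes differed by 3.67, a difference for which the deposited table holds no test.

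All 4 angiopoietin-like members stood above both stanniocalcins in normoxia, and all but Angptl7 did so in hypoxia. Angptl6 encodes a circulating factor, also called angiopoietin-related growth factor, that has been linked to vessel growth and energy use. Angptl6 (ENSMUSG00000038742, chromosome 9, 20873808 to 20879727, minus strand) rose from 9.87 to 34.6 FPKM, or 3.50-fold (log2 fold change 1.81, q = 0.000139 in the authors' deposited table). A log2 fold change at least as high was found in 4.18% of tested measurements, whether called or not. It was the most abundant member in hypoxia and the second in normoxia.

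Angptl2 encodes a secreted factor of inflamed and fat tissue that signals through integrins and an immune receptor. Angptl2 (ENSMUSG00000004105, chromosome 2, 33216069 to 33247717, plus strand) measured 10.4 FPKM under normoxia and 11.0 FPKM under hypoxia, a ratio of 1.06 that was not called (log2 fold change 0.083, q = 0.562 in the authors' deposited table). Angptl2 and Angptl6 thus stood side by side in normoxia, with a ratio of Angptl6 to Angptl2 of 0.952. In hypoxia Angptl6 was 3.15 times the level of Angptl2. Without values of single cultures, the order of these neighbours in normoxia cannot be set against their spread. Of the 7134 tested measurements with a mean from 5 to under 50 FPKM, which include both genes, 32.3% were called higher and 31.9% lower.

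Angptl4, the gene of an inhibitor of lipoprotein lipase, was the only member called lower. Angptl4 (ENSMUSG00000002289, chromosome 17, 33773750 to 33781830, minus strand) went from 3.64 to 2.02 FPKM, 1.80-fold lower in hypoxia (log2 fold change -0.85, q = 0.000139 in the authors' deposited table). A log2 fold change at least as low was found in 15.7% of tested measurements, whether called or not. Of the 2723 tested measurements with a mean from 1 to under 5 FPKM, 34.2% were called lower and 23.6% higher. The fall of Angptl4 runs against the direction of Stc1 and of the reference targets of HIF described below.

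Angptl7 encodes a factor best known from the cornea and the outflow tissue of the eye, where it is tied to eye pressure. Angptl7 (ENSMUSG00000028989, chromosome 4, 148495183 to 148500460, minus strand) stood at 5.82 FPKM in normoxia, the third highest of the members, and at 0.0204 FPKM in hypoxia. The authors' log2 fold change was -8.16 and the gene was not called (p = 0.126, q = 0.184 in the authors' deposited table). Only 2 tested measurements above 0 in both groups lay at least 100-fold apart, Angptl7 and Cyp1a1, and neither was called. Of these 2, only Angptl7 was lower in hypoxia. Cyp1a1 was named here after its value was seen. Of the 15 such measurements at least 50-fold apart, 7 were not called, among them all 3 that were lower in hypoxia. A large ratio without a call was thus not particular to Angptl7. Only Angptl7 and 1 other tested measurement had at least 5 FPKM in normoxia and under 0.1 FPKM in hypoxia, and the other was called. How the 5.82 FPKM was spread over the 3 normoxic cultures was not analysed here.

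**Figure D2:**
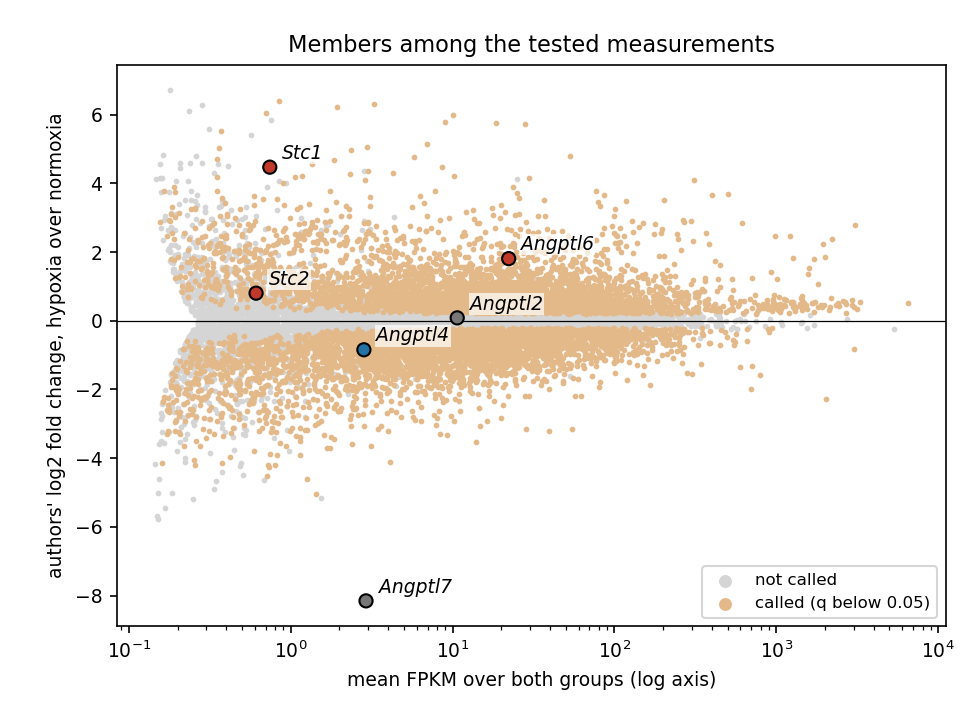
The log2 fold change given by the authors (hypoxia over normoxia) against mean FPKM over both groups (log axis) for the tested measurements above 0 in both groups, coloured by call, with the 6 tested members marked (red higher, blue lower, grey not called). Stc1 lies near the top of the cloud at its low level with a log2 fold change of 4.47, Angptl2 sits on the zero line, and Angptl7 lies alone at -8.16.

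The angiopoietins themselves were close to absent. Angpt1 (ENSMUSG00000022309, chromosome 15, 42424723 to 42676977, minus strand) measured 0.0145 FPKM under normoxia and 0.0177 FPKM under hypoxia. Angpt2 (ENSMUSG00000031465, chromosome 8, 18690263 to 18741562, minus strand) measured 0.129 FPKM under normoxia and 0.0216 FPKM under hypoxia. The authors' table marks both as not tested, and no direction is drawn from either. ANGPT2 is best known from endothelial cells, where it responds to low oxygen.

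Between the families, the 6 angiopoietin-related members summed to 29.8 FPKM under normoxia and 47.6 FPKM under hypoxia, a ratio of 1.60, against a ratio of 4.31 for the stanniocalcins. Angptl6 supplied 72.6% of the angiopoietin-related sum in hypoxia, while in normoxia Angptl2 held the largest share, at 34.8%. Both stanniocalcins rose, whereas of the 4 tested angiopoietin-related members 1 rose, 1 fell and 2 were not called. Since 28.9% of all tested measurements were called higher and 29.0% lower, counts of so few genes are no result about the families. In hypoxia Angptl6 still stood at 24.3 times the level of Stc1, compared with 154 times in normoxia. The order from high to low was Angptl2, Angptl6, Angptl7, Angptl4, Stc2, Angpt2, Stc1 and Angpt1 in normoxia. In hypoxia it was Angptl6, Angptl2, Angptl4, Stc1, Stc2, Angpt2, Angptl7 and Angpt1. With 1 value per group, no neighbours in either order can be told apart by their spread.

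Of the 8 members, 3 share a position in the genome that their choice did not use. Angptl2, Angptl7 and Angpt2 each lie inside a larger protein-coding gene of the opposite strand, Ralgps1, Mtor and Mcph1 respectively. Mtor encodes the kinase of mTORC1, the complex in the title of the study. In the GENCODE M21 annotation of GRCm38, 541 of 21938 protein-coding genes (2.47%) lie inside a protein-coding gene of the other strand. Outside the members, Angptl1 and Angptl8 lie inside Ralgps2 and Dock6 in the same way. No exon base of these 3 members is shared with an exon of its host. Angptl2 and Angptl7 lie between exons of their hosts, and 1 exon of Mcph1 falls within the span of Angpt2.

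None of these 3 hosts was called lower. Mtor, at 18.4 FPKM under normoxia and 21.0 FPKM under hypoxia, received no call (q = 0.400 in the authors' deposited table), beside the low hypoxic value of Angptl7. Ralgps1, at 2.76 and 2.82 FPKM, was not called either (q = 0.932 in the authors' deposited table). Mcph1 rose 1.66-fold, from 9.68 to 16.1 FPKM (q = 0.000139 in the authors' deposited table), while Angpt2 was untested and no direction is drawn from it.

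Angptl6 instead meets its neighbour tail to tail. Its last exon overlaps the end of A230050P20Rik on the plus strand (chromosome 9, 20868642 to 20874307), and 265 exon bases, 16.8% of those of Angptl6, belong to both genes. A230050P20Rik rose as well, 1.75-fold from 4.65 to 8.12 FPKM (q = 0.0382 in the authors' deposited table). The libraries were stranded, per the labels' protocols, but the sources used here do not say whether the authors' quantification used the strand, so fragments from these shared bases cannot be assigned with certainty. Stc1 shares 229 exon bases, 5.46% of its own, with the antisense gene Gm41192, which was listed at 0 FPKM in normoxia and stood at 0.0218 FPKM in hypoxia. Angpt1 shares 737 exon bases with the antisense gene Gm17473, listed at 0 in both groups. Stc2 and Angptl4 overlap no annotated gene. Between members, the longest exact run shared by protein-coding transcripts was 25 bases, in Angptl2 and Angptl6, over 28 pairs of genes.

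**Figure D3:**
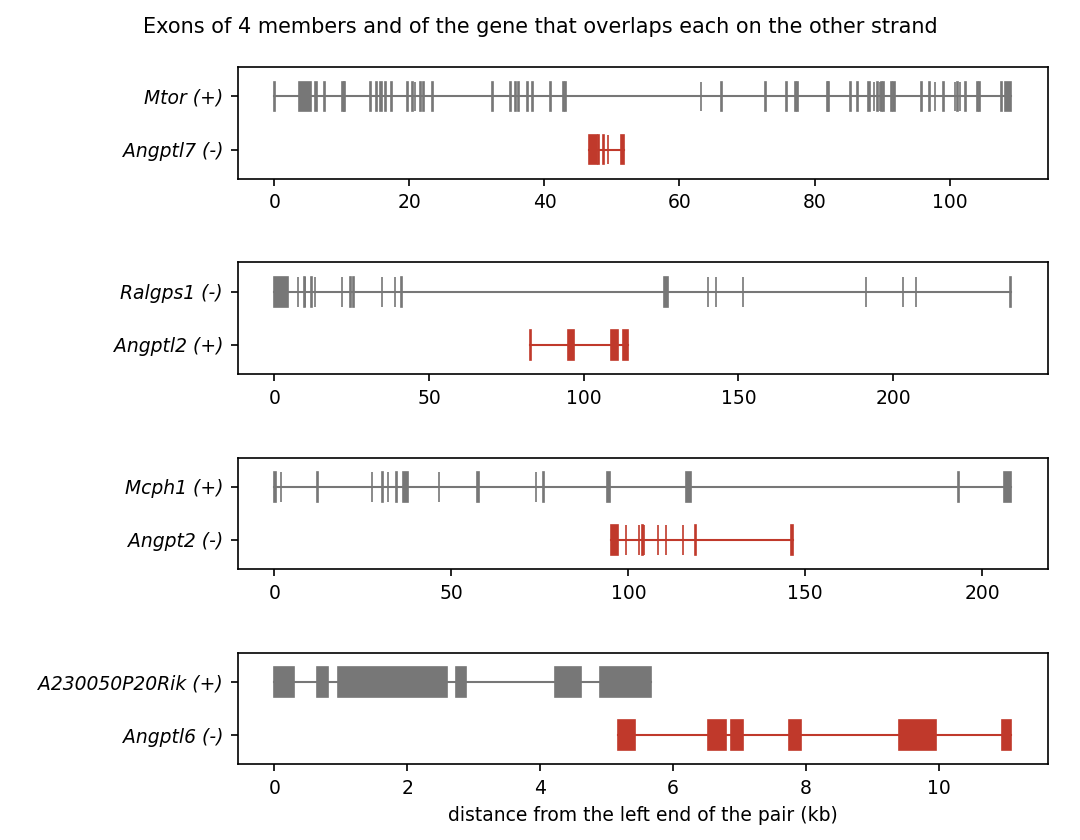
Exons (boxes) and gene spans (lines) of 4 members in red and of the gene that overlaps each on the other strand in grey, as distance in kb from the left end of the pair, with the strand in brackets. Angptl7 occupies a gap between exons of Mtor, and Angptl6 and A230050P20Rik overlap only at their ends.

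The other genes of the family and the receptors gave little signal. Angpt4 and Angptl8, angiopoietin-related genes outside the members, were tested and stayed under 1 FPKM in both groups. Angpt4, a further TIE2 ligand, fell from 0.354 to 0.0523 FPKM (q = 0.000638 in the authors' deposited table), and Angptl8, a regulator of lipoprotein lipase, was not called at 0.298 and 0.167 FPKM. The receptor genes Tek (TIE2) and Tie1 were at most 0.0438 FPKM and were not tested. Of 12 tested genes on the list of TIE receptors and angiopoietin signalling, 3 rose and 3 fell. Over all tested measurements 28.9% were called higher and 29.0% lower. Another 6 genes of the list received no call, and its median difference of log2(FPKM + 1) was -0.0084. Itgb1 and Itga5, integrin chains to which ANGPTL2 can bind, were high and not called, Itgb1 at 255 and 249 FPKM and Itga5 at 49.99 and 43.7 FPKM (q = 0.0562 in the authors' deposited table). Among the downstream genes, the adaptor gene Grb14 rose 1.98-fold and the transcription factor gene Foxo1 rose 1.94-fold. The kinase gene Akt1 fell from 124 to 66.1 FPKM, Pik3r1, a regulatory subunit of PI3-kinase, fell 1.82-fold and the adaptor gene Grb7 fell 1.28-fold.

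The enzymes that angiopoietin-like proteins inhibit, and the proteases that cut them, were split. Of 7 tested genes on this list 2 rose and 3 fell, against 28.9% called higher and 29.0% called lower over all tested measurements. Another 2 received no call, and the median difference of log2(FPKM + 1) was -0.19. Lpl, the gene of lipoprotein lipase and the main target of ANGPTL4, fell from 24.8 to 19.4 FPKM (1.28-fold lower, q = 0.0020 in the authors' deposited table), in the same direction as Angptl4. Lipg, the gene of endothelial lipase, rose from 2.00 to 7.72 FPKM (3.86-fold). Lmf1, whose product folds these lipases, rose 1.70-fold. Furin and Pcsk5, proprotein convertases, fell 1.88-fold and 1.65-fold. Gpihbp1, which carries lipoprotein lipase across capillary endothelium, was listed at 0 in both groups.

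Regulators and targets of the PPAR receptors, of which Angptl4 is a known target, were more often higher than lower. Of 15 tested genes 8 rose and 4 fell, against 28.9% called higher and 29.0% called lower over all tested measurements. Another 3 received no call, and the median difference of log2(FPKM + 1) was 0.30. Pdk4, a kinase that restrains pyruvate dehydrogenase, rose from 2.00 to 5.90 FPKM, and Fabp4, a lipid carrier, from 0.150 to 0.628 FPKM. Of the receptors, Ppard rose from 20.3 to 46.8 FPKM (2.31-fold) and Ppara from 0.351 to 0.664 FPKM. Pparg fell from 3.37 to 1.87 FPKM, 1.80-fold lower, and its partner Rxra 1.33-fold.

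Known partners of the stanniocalcins and genes of the insulin-like growth factor axis formed a mixed list that moved both ways. Of its 11 tested genes 3 rose, 6 fell and 2 received no call, where 28.9% of all tested measurements were called higher and 29.0% lower. The median difference of log2(FPKM + 1) was -0.30. Igfbp4, whose product is the classical substrate of PAPP-A, fell from 93.1 to 35.7 FPKM, or 2.61-fold. Igfbp5, another substrate of the same protease family, fell from 1.45 to 0.277 FPKM (5.21-fold). Pappa itself, the target of the stanniocalcins, stood at 0.520 and 0.374 FPKM and fell (q = 0.00156 in the authors' deposited table). Igf1r, the receptor gene, rose from 7.47 to 16.4 FPKM. Hmox1 and Stim1, genes of a haem oxygenase and a calcium sensor to which STC2 has been reported to bind, rose from 47.4 to 226 FPKM and 1.40-fold.

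Genes of the ATF4 branch of the stress response, a known regulator of Stc2, moved both ways. Of 15 tested genes 7 rose and 5 fell, against 28.9% called higher and 29.0% called lower over all tested measurements. Another 3 received no call, and the median difference of log2(FPKM + 1) was 0.12. Ddit3, the gene of the stress factor CHOP, rose from 36.4 to 175 FPKM (4.81-fold), Vldlr, a lipoprotein receptor, 3.79-fold and Ppp1r15a, a phosphatase subunit, 2.86-fold. Chac1, which breaks down glutathione, fell from 37.4 to 11.1 FPKM, the stress-induced gene Sesn2 2.40-fold and the serine synthesis gene Phgdh 1.62-fold. Atf4 itself rose from 401 to 540 FPKM.

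All 12 reference targets of HIF rose, with a median difference of log2(FPKM + 1) of 2.84. They were chosen as known targets with earlier results of these samples in view and are no independent evidence of that direction. Adm, Ndrg1, Ankrd37 and Car9 rose between 8.37-fold (Car9) and 54.5-fold (Adm). Set beside these, the authors' log2 fold change of Stc1 (4.47) exceeded that of Ankrd37 (3.65) and Ndrg1 (3.68). The hypoxic level of Stc1, 1.42 FPKM, was far under their 159 and 930 FPKM. In differences of log2(FPKM + 1), which understate the change of low genes, Stc1 (1.19) lay under each of the 12 targets. Among other secreted angiogenic factors 6 of 10 tested genes rose and 3 fell, with Vegfa counted both here and among the 12 HIF targets. Over all tested measurements 28.9% were called higher and 29.0% lower. The last of the 10, 1 gene, received no call, and their median difference of log2(FPKM + 1) was 0.43. The growth factor genes Vegfa, Vegfd and Pgf rose 5.01-fold, 3.62-fold and 3.26-fold. Thbs2 and Thbs1, genes of the angiogenesis inhibitors thrombospondin 2 and 1, fell 2.46-fold and 2.11-fold, and the chemokine gene Cxcl12 fell 1.21-fold.

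**Figure D4:**
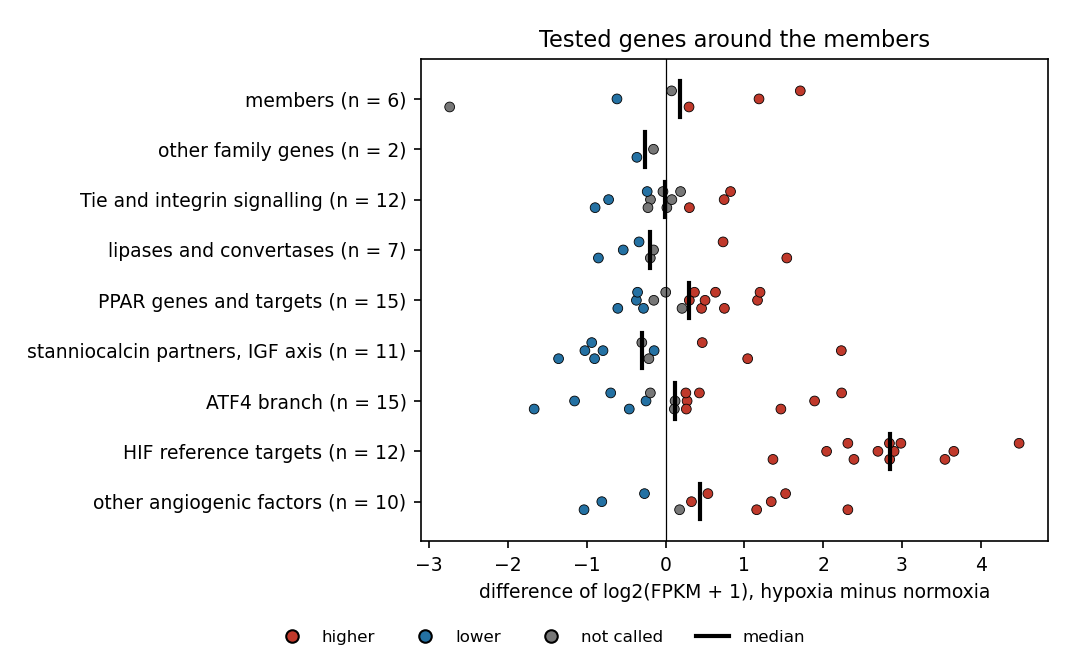
Difference of log2(FPKM + 1) between hypoxia and normoxia for each tested member and each tested gene of 8 surrounding lists (points, coloured by the authors' call), with the median of each row (black bar) and the number of tested genes. The HIF reference targets all lie to the right, at a median of 2.84, while the members spread from Angptl7 on the left (-2.74, not called) to Angptl6 on the right (1.71).

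Markers were checked against the label of the cells. All 8 fibroblast markers were tested, and 2 rose, 4 fell and 2 received no call. Among all tested measurements 28.9% were called higher and 29.0% lower. The median difference of log2(FPKM + 1) of the 8 markers was -0.28. Vim rose from 883 to 2249 FPKM and Fn1 from 448 to 649 FPKM. Among the 4 that fell, the normoxic and hypoxic levels of the collagen gene Col1a2 were 140 and 91.7 FPKM, with Col3a1 at 328 and 182 FPKM, Pdgfrb at 10.9 and 6.58 FPKM, and Thy1 at 8.65 and 5.72 FPKM. Col1a1, at 463 and 451 FPKM, and Pdgfra, at 3.11 and 3.22 FPKM, were not called. The part of these changes in the values of the members was not tested. All 8 endothelial markers, Tek and Tie1 included, were at most 0.0906 FPKM and were not tested, 3 of them listed at 0 in a group (Cdh5 in hypoxia, Emcn and Cldn5 in both). Adipocyte markers were under 1 FPKM in all 6 cases, and 5 were listed at 0 in a group, among them Adipoq in hypoxia and Plin1 in normoxia. Fabp4 was the only adipocyte marker tested, and it rose, from 0.150 to 0.628 FPKM. Of 5 macrophage markers only Cd68 exceeded 1 FPKM, and it rose (1.32 to 2.27 FPKM). Of 6 pericyte and smooth muscle markers only Des exceeded 1 FPKM (11.0 and 9.46 FPKM), and it was not called. Cspg4, a marker of the same list, fell from 0.422 to 0.225 FPKM. The 4 epithelial markers were all present, summing to 353 FPKM in normoxia and 462 FPKM in hypoxia, most of it Krt18. Krt18 rose, Krt8 and Cdh1 fell and Epcam was not called, and their part in the values of the members was not tested.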

How the data were processed

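RNA was sequenced from 6 cultures, 3 per group. The submitters' processing notes name build GRCm38, Cuffdiff 2.2.1, Cufflinks, StringTie 1.3.4d and HISAT2 2.1.0. The authors deposited 1 FPKM per gene and group, a log2 fold change of hypoxia over normoxia and, per the file headers, a p-value, a q-value and a test statistic, which is a score and was not used. The sources used here do not say how the authors scaled libraries.

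From the 53207 rows, repeats of 1 measurement under several identifiers were counted once (51482 measurements, 14575 tested). Rows that carry several gene names were left out of gene lists. The fits planned for values of single cultures were replaced by the authors' calls at q below 0.05, since the table holds group values. Differences of log2(FPKM + 1) understate the change of low genes. Named were all members, and of each of 8 pathway lists all called genes (up to 5) or the 4 with the largest change and up to 2 against the majority. Pappa, Atf4, Itgb1, Itga5, Angptl8, Gpihbp1, Tek and Tie1 were in part named outside this rule, for their known roles, after values were seen. Cpt1a and Slc25a20 were also named outside it after values were seen, as PPAR targets that fell. A gene on these lists is not reported here. Members and lists were chosen with earlier results of these data known. Coordinates are 1-based from GENCODE M21. Figures and counts were made with Python 3.11.15 and pandas 2.3.3, and the scaling and motif steps were tested on simulated data. Alternatives were another pseudocount or none, a 2-fold threshold, q below 0.01, a filter of 1 FPKM, inclusion of shared rows and rescaling by the median of ratios.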

Additional observations from a re-analysis of the deposited data

How the results depend on the processing

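No paired analysis was possible because the deposited columns hold 1 value per group and carry no replicate numbers, and for the same reason no culture could be left out in turn. The 3 calls of higher members and the 1 call of a lower member were unchanged at q below 0.01. Rescaling by the median of ratios (a factor of 0.991) kept the authors' q, so it could not change these calls. With a mean of at least 1 FPKM, only the 4 angiopoietin-like members were left, since Stc1 and Stc2 lie under that mean. Of these 4, 1 was called higher (Angptl6) and 1 lower (Angptl4). The share of all measurements called under this filter was not counted. With a change of at least 2-fold, 2 members were called higher (Stc1 and Angptl6) and 0 lower, since Stc2 and Angptl4 changed less. A pseudocount added to both groups cannot reverse a direction, and a factor of 0.991 is too near 1 to reverse that of any member. The unchanged directions are therefore no check, but sizes of low genes did change with the pseudocount. The log2 difference of Stc1 was 1.19 with a pseudocount of 1, 3.21 with 0.1 and 4.47 with none, and that of Angptl7 was -2.74, -5.62 and -8.16. Of 64 recounts of the lists, 2 moved by over 1.5 times: Angpt4 dropped out under the filter of 1 FPKM, and 5 rather than 3 other angiogenic factors were lower with shared rows included. The recounts after rescaling also kept the authors' q, so they could hardly differ. The depth of the libraries is unknown, so how firmly values under 1 FPKM are known cannot be stated.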
